A study of Mus musculus with 43 samples.

Results

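Chromatin accessibility was compared between irradiated mouse intestinal organoids collected on day 11 (D11) and on day 7 (D7) of culture, both given vehicle. The comparison used 6 of the 18 ATAC-seq libraries of a series of 43 samples, 3 per day. The peaks of the 6 lists on chromosomes 1 to 19 were merged wherever they overlapped, which gave 50825 regions. A region was called gained when all 3 D11 lists and none of the 3 D7 lists held it, and lost in the reverse case. By that rule 3579 regions (7.04%) were gained and 48 (0.0944%) were lost. A further 15207 regions were in all 6 lists and are called shared.

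The organoids were primary cultures from C57BL/6 mice of wild-type genotype. Both groups received 4 Gy of ionising radiation on day 4 and vehicle on day 6 for 24 h, so they differ in the day of collection alone, as far as the labels say. Comparison groups were irradiated organoids given 2 ng/mL TGFB1 in place of vehicle (3 libraries at D7 and 3 at D11) and non-irradiated D7 organoids with vehicle or TGFB1 (3 libraries each). The labels name no separate cultures or mice behind the replicates, so p-values measure only the spread between these libraries.

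ATAC-seq uses the Tn5 transposase, which inserts sequencing adapters where DNA is not covered by nucleosomes, so peaks of insertions mark open promoters and enhancers. Intestinal epithelium renews itself from crypt stem cells. Radiation kills many dividing cells, and survivors pass through a transient regenerative state before the usual lineages are rebuilt. Organoids hold the epithelium without its supporting stroma. Both days of collection came after the irradiation. No non-irradiated group was collected at D11, so time in culture and time since irradiation cannot be told apart. Whether the 2 days are points of that course was not tested.

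RNA-seq libraries labelled as the same 2 groups (3 per day) held high levels of epithelial markers. Epcam, an epithelial adhesion molecule, was at 634 ± 14.5 FPKM (SD, n = 3) at D7 and 678 ± 11.0 (SD, n = 3) at D11, and the simple-epithelium keratin Krt8 at 1263 ± 21.7 and 1219 ± 151.8. The summed level of 5 immune markers was 2.92 to 3.91 FPKM in the D7 libraries and 1.93 to 4.08 at D11, nearly all of it Lyz2. Of 5 mesenchymal markers only Vim reached a mean of 1 FPKM, and 3 endothelial and 3 neural markers summed to at most 0.203 and 0.524 FPKM in any library.

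The D11 lists were longer and their scores higher. The D7 lists held 22567, 24194 and 25683 peaks and the D11 lists 40513, 48078 and 29956 (replicates 1, 2 and 3). The means were 24148 ± 1558.5 and 39516 ± 9102 (SD, n = 3 each), 1.64-fold more at D11. No D11 list was as short as a D7 list, and the spread among D11 lists was the wider. The two-sided exact permutation test gave p = 0.1, the smallest value that 3 against 3 libraries allow. The peak score is the authors' −log10 q, which grows with read depth as well as with enrichment. Its median was 6.75, 7.99 and 7.25 at D7 and 12.0, 9.11 and 11.2 at D11 (exact permutation p = 0.1). Read depth was not among the deposited values, so depth and openness cannot be told apart in list length or in raw score. In bulk samples, fewer cells of a type and less signal or RNA per cell cannot be told apart either.

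**Figure D1:**
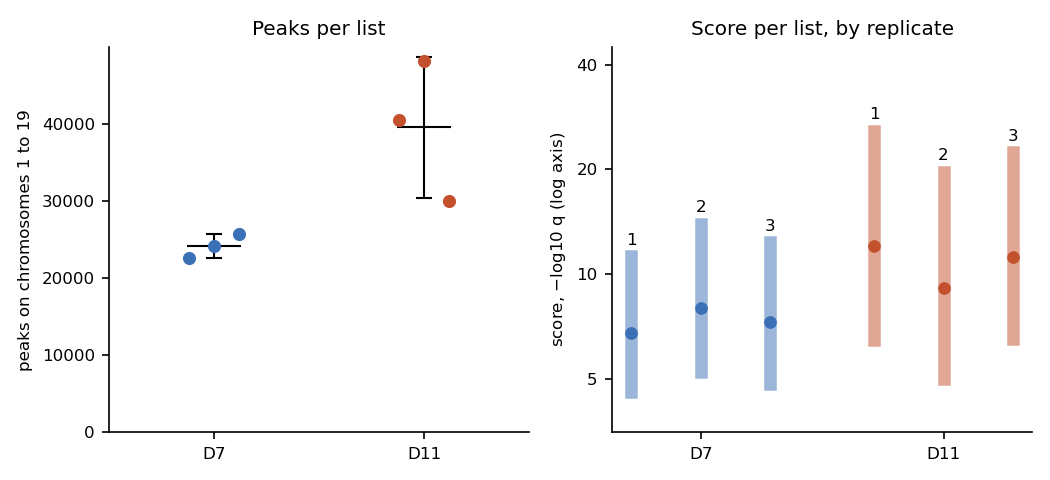
Left, peaks on chromosomes 1 to 19 in each list of irradiated vehicle organoids (points are libraries, the horizontal bar is the mean and the whiskers 1 SD, n = 3). Right, the score of the peaks in each list on a log axis, with the median as a point and the middle 50% of peaks as a bar, numbered by replicate; the 3 D11 medians (9.11 to 12.0) lie above the 3 D7 medians (6.75 to 7.99).

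Gained regions were weak to middling peaks. Their median score was 8.68, 8.12 and 6.09 in the 3 D11 lists, at percentiles 37.6, 45.3 and 22.4 of those lists. Shared regions had medians of 31.5, 27.4 and 21.6 in the same lists. Regions just outside the rule, held by all 3 D11 lists and by 1 D7 list (3534 regions) or 2 (4161 regions), had a median D11 score of 9.70 and 12.3, against 7.41 inside it. The strongest sites were common to both days. Among the 5000 highest-ranked regions of each D11 list, 0 to 0.02% were absent from all 3 D7 lists. The share was 18.1 to 19.6% at ranks 15001 to 20000 and 36.8 to 38.2% at ranks 20001 to 25000. D7 lists read the other way gave 4.74 to 6.56% and 10.9 to 12.4% at those ranks.

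**Figure D2:**
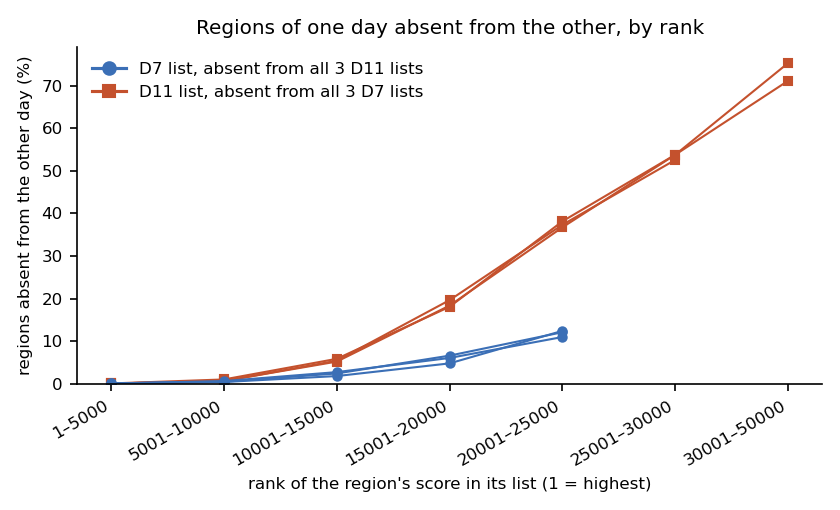
Share of each list's regions (y axis, percent) that no list of the other day held, by the rank of the region's score within its own list (x axis, 1 is highest). Squares are the 3 D11 lists and circles the 3 D7 lists; the lists of a day lie close together, near 0 for the top ranks, and D11 reaches 18.1 to 19.6% where D7 reaches 4.74 to 6.56%, at ranks 15001 to 20000.

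Much of the asymmetry went with list length. When every list was reduced to its 22567 highest-scoring peaks, the length of the shortest, 737 of 33026 regions (2.23%) were gained and 440 (1.33%) were lost. The ratio of gained to lost thus went from 3579 against 48 to 737 against 440. With the D11 lists reduced and the D7 lists whole, 567 regions were gained. Of the 737, 567 were in no whole D7 list either, 158 were in 1 and 12 in 2. Leaving out D11 replicate 3, the shortest D11 list, raised the gained count from the whole lists to 8612. That also loosened the rule, since fewer D11 lists had to hold a region.

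At equal numbers the D11 lists were more alike than the D7 lists. The Jaccard index, the shared part of 2 lists divided by their union, was 0.745 to 0.765 between D11 libraries and 0.638 to 0.646 between D7 libraries. Between days it was 0.632 to 0.652, a range that contains the D7 values. The mean within days exceeded the mean between days by 0.0594 (exact permutation test over libraries, upper tail, p = 0.1, the smallest possible). Among the shared regions, the Spearman correlation of scores, given as a description over 15207 regions, was 0.882 to 0.894 within D11, 0.730 to 0.762 within D7 and 0.670 to 0.741 between days.

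The 10 strongest gained regions, ranked by their lowest percentile over the D11 lists, stood at percentile 68.6 or above in every D11 list. The first, here G1 (chr2:91895374-91896055, in the coordinates of the deposited files), scored 29.3, 26.1 and 31.3 at D11. G2 (chr6:86743261-86743897) scored 28.3, 24.4 and 24.1, and G3 (chr12:77679432-77680047) 25.1, 23.0 and 25.1. All 3 were of nearly equal height in the D11 replicates and had no peak in any D7 vehicle list. They were present in other organoids, though. Each of the 10 was in 3 of 3 lists of non-irradiated D7 vehicle organoids, and 8 of 10 were in at least 1 list of irradiated D7 organoids given TGFB1.

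G4 (chr17:13837170-13837798) and G8 (chr8:43272311-43272973) were the other 2, absent from all 6 irradiated D7 lists, vehicle and TGFB1. G4 scored 28.4, 29.7 and 21.6 at D11 with vehicle, 18.2, 14.4 and 5.78 at D11 with TGFB1 and 9.26, 20.4 and 12.0 in non-irradiated D7 vehicle organoids. G8 scored 22.1, 17.8 and 20.9 at D11 with vehicle, 15.8, 10.6 and 5.78 with TGFB1 and 12.7, 15.6 and 7.68 without irradiation. Both were thus held by 9 of 9 lists of these 3 groups, lowest in D11 TGFB1 replicate 3, which is the shortest D11 TGFB1 list. G8 lay 371.1 kb from the nearest shared region, the most isolated of the 10, and G6 (chr9:54757197-54757932) lay 6.72 kb from one.

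Over all 3579 gained regions, 692 (19.3%) were in 3 of 3 non-irradiated D7 vehicle lists and 1025 (28.6%) in none. Of all 50825 regions, 39.4% were in 3 of 3 and 36.1% in none. Presence without irradiation was more frequent among gained regions that were strong at D11. Of the 896 with the lowest percentiles, 6.70% were in all 3 non-irradiated vehicle lists, and of the 891 with the highest, 39.7%. For irradiated D7 TGFB1 lists the same shares were 3.91 and 15.0%. In all, 250 gained regions (6.99%) were in none of the 9 other D7 lists, and 120 (3.35%) were in none of the 12 other lists.

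The TGFB1-treated libraries covered the same 2 days in organoids that the rule had not used. TGFB1 was given on day 6 for 24 h, so D7 came at the end of the exposure and D11 after it. Day and time since the exposure cannot be told apart in these libraries. D11 TGFB1 lists held 59.0, 63.3 and 41.9% of the gained regions and D7 TGFB1 lists 37.6, 20.5 and 20.1%, so the days did not overlap. The means were 54.7 ± 11.3% and 26.1 ± 10.0% (SD, n = 3, exact permutation p = 0.1, the smallest possible). For all regions they were 56.1 ± 6.35% and 40.5 ± 6.66%. These lists also differed in length, with 28523 to 37184 peaks at D11 and 19907 to 27368 at D7. Reduced to 19907 peaks each, they held 21.8 ± 1.40% and 19.8 ± 0.933% of the gained regions (exact permutation p = 0.2), a difference of 1.94 percentage points in place of 28.7. The regions gained at equal numbers gave 39.8 ± 5.44% and 39.3 ± 0.392% in the reduced lists, a difference of 0.498 points (exact permutation p = 1). With lists of equal length, a higher share at D11 was not detectable in these TGFB1-treated libraries.

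**Figure D3:**
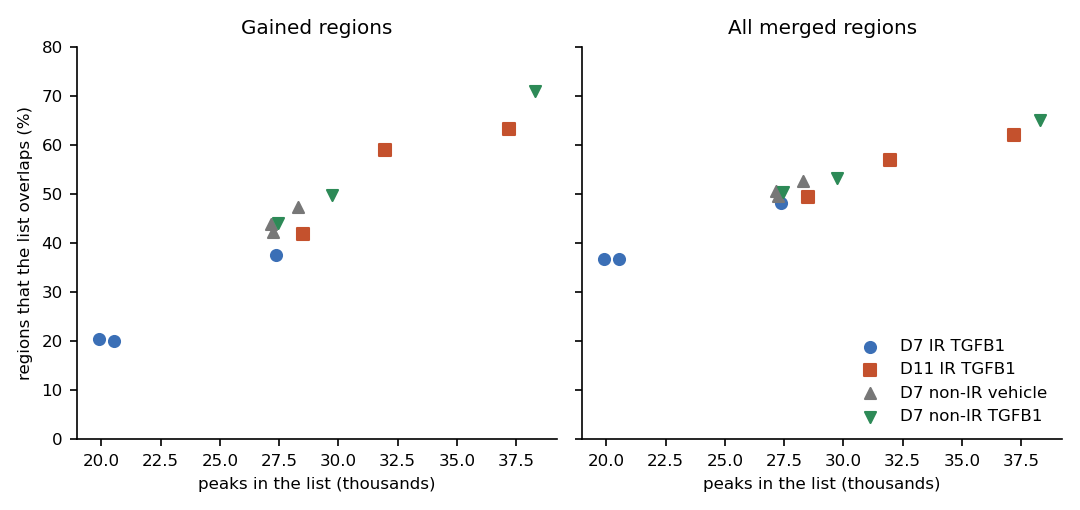
Share of the 3579 gained regions (left) and of all 50825 merged regions (right) that each of the 12 other lists overlapped (y axis, percent), against the number of peaks in that list (x axis, in units of 1000 peaks). The order by length was not strict: the D11 TGFB1 list with 28523 peaks held 41.9% of the gained regions and the non-irradiated vehicle list with 28308 peaks 47.4%. The longest of the 12, a non-irradiated D7 TGFB1 list with 38299 peaks, held 71.0% of the gained regions, more than any D11 TGFB1 list.

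The same pattern by presence, 3 of 3 D11 TGFB1 and 0 of 3 D7 TGFB1 lists, was met by 337 gained regions (9.42%) and by 2387 of all regions (4.70%). The reverse was met by 14 gained regions (0.391%) and by 123 of all regions (0.242%). These counts used the whole lists, which were longer at D11, and none was made at equal numbers. Regions in any D7 TGFB1 list could not meet the first pattern. Those in none of these lists were 51.9% of the gained regions and 45.7% of all regions. Of the shared regions, which are part of all regions, they were 3.53%.

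The 48 lost regions were few and mostly weak, with a median score of 4.57, 6.44 and 5.73 in the D7 lists. Of the 48, 8 (16.7%) lay within the width of 1 peak of a shared region, against 129 of the gained ones (3.60%). The strongest, L1 (chr14:19070702-19071334), scored 8.18, 15.7 and 16.1 at D7 and lay 96 bp from a shared region. L2 (chr7:148402017-148402732), with 7.11, 13.0 and 11.1, lay 14 bp from one. Both thus adjoined a region that all 6 lists held. L3 (chr8:116960584-116961224) scored 7.99, 9.13 and 7.30 at D7 and lay 1.82 kb from a shared region, and none of the 3 non-irradiated vehicle lists held it. L4 (chr6:99149172-99149815), 77.3 kb from a shared region, scored 6.65, 7.46 and 8.08. Reduced to equal numbers, D7 TGFB1 lists held 29.2 ± 5.51% and D11 TGFB1 lists 9.03 ± 6.70% of the lost regions (SD, n = 3, exact permutation p = 0.1), and 36.5 and 37.5% of all regions. With whole lists the shares were 35.4 and 25.7% (exact permutation p = 0.3). The count of 48 became 125, 132 and 91 without D7 replicates 1, 2 and 3, and 86 and 108 without D11 replicates 1 and 2. Leaving out a list also loosens the rule, since fewer lists must hold or lack a region, which favours a higher count.

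Gained regions were spread over all 19 chromosomes, from 5.57% of the regions on chromosome 8 to 8.73% on chromosome 11 and 8.66% on chromosome 19. They lay a median of 23.1 kb from the nearest shared region, close to the 24.6 kb between shared regions. In windows of 100 kb the highest count was 4, reached by 15 windows, and 2410 windows held 1. The first of the 15, by the strength of its weakest member, was chr2:25000001-25100000, with 4 gained regions among 13 and 1 shared region.

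That window lay in a stretch of chromosome 2, singled out after its values were seen, which held gained regions and shared regions that rose in rank. Between 24934286 and 25390205, over 456 kb, 10 regions were gained and none was lost, among 47 merged regions in and next to it. Of all regions 7.04% were gained. Of the gained ones, R26046 (chr2:25048822-25049458) scored 22.5, 13.2 and 10.7 at D11, and R26062 (chr2:25166354-25167382) scored 11.9, 15.9 and 11.0. R26046 was the higher in replicate 1 and R26062 in replicates 2 and 3. Of the 12 shared regions in and next to this stretch, 3 were called higher in rank at D11 by the test described next and none lower. Of all shared regions 3.37% were called higher. The stretch was singled out by its values and is bounded by its own first and last gained regions, which favours both counts.

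Shared regions were compared by the rank of their score within each library, which removes the general difference in score between lists. Ranks were turned into normal scores (a rank placed on the scale of a standard normal distribution) and tested with limma, with Benjamini-Hochberg adjustment over all 15207 regions. At an adjusted p under 0.05, 1055 regions (6.94%) were called, 512 (3.37%) higher and 543 (3.57%) lower at D11. The called-higher regions went from a median percentile of 39.3 to 80.9 among shared regions, and the called-lower ones from 75.04 to 29.7. In 506 and 538 of them the 3 libraries of one day did not overlap those of the other, where 28.2% of all shared regions had no overlap. The calls were made on these same ranks, which favours that outcome, so it is no separate evidence. Without D11 replicate 1, 2 or 3 the count was 353, 281 or 451, and without a D7 replicate 890 to 1041. With log2 scores centred on the library median in place of ranks, 1764 regions were called and 20.7% of them were higher, against 48.5% by rank, so the balance of directions depends on the scale.

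In raw score almost every shared region was higher at D11, 14934 of 15207 by the mean. Of the 543 called-lower regions, 210 (38.7%) had a lower mean raw score at D11, and in 17 every D11 score was below every D7 score. No other shared region met that last condition. All 512 called-higher regions had every D11 score above every D7 score, as did 79.0% of all shared regions.

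The largest rises on the normal-score scale, which stretches ranks near the ends, were those of H1 and H2, both among the lowest-scoring shared regions of D7. In percentile points H5 (64.1), H8 (61.9) and H4 (58.4) rose by more than H1 (51.4) and H2 (53.7). H1 (chr19:3325205-3325935) scored 1.51, 3.92 and 4.59 at D7 and 33.1, 35.5 and 19.3 at D11. It rose by 2.33 ± 0.466 normal-score units (SE, limma adjusted p = 0.00490). H2 (chr8:97227241-97228358) scored 2.10, 3.39 and 4.83 at D7 and 35.6, 32.6 and 22.7 at D11, a rise of 2.202 ± 0.414 (SE, limma adjusted p = 0.00382). Both were close to the detection limit at D7 and of middle height at D11, with no overlap between days. Without D11 replicate 2, the change of H1 was 2.16 with a limma adjusted p of 0.0575.

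H8 (chr2:25127576-25128305), inside the stretch of chromosome 2 above, had the smallest error of the 20 regions with the largest rises and falls. It scored 7.16, 6.03 and 8.96 at D7 and 56.3, 56.1 and 52.8 at D11. Its percentile went from 30.1 ± 13.2 to 92.0 ± 5.39 (SD, n = 3), a rise of 2.02 ± 0.279 (SE, limma adjusted p = 0.000566). With 6 gained regions within 100 kb it had more such neighbours than any other of the 20. In non-irradiated D7 vehicle organoids it stood at the 76.9th percentile of the regions that those lists also held. H9 (chr5:115776744-115777466) lay 6.58 kb and H10 (chr8:47934121-47934886) 0.073 kb from a gained region, with 4 and 3 gained regions within 100 kb. H10 was the least secure of the 20, with a rise of 1.89 ± 0.492 (SE, limma adjusted p = 0.0223) that went to an adjusted p of 0.0618 without D7 replicate 2 and to 0.0698, 0.158 and 0.0698 without D11 replicates 1, 2 and 3. G9 (chr8:47954571-47955248), among the 10 strongest gained regions, lay 19.7 kb from its nearest shared region, which was H10.

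F1 (chr10:105775175-105775909) fell furthest and had the lowest adjusted p of the 20. It scored 15.3, 23.7 and 16.2 at D7 and 6.00, 6.12 and 5.45 at D11, so every D11 score lay below every D7 score. Its percentile was 78.4, 83.4 and 73.4 at D7 and 0.904, 1.36 and 2.97 at D11. The fall was 2.95 ± 0.362 normal-score units (SE), and the limma adjusted p was 0.000266. F7 (chr15:12891243-12892000) scored 18.3, 16.2 and 17.0 at D7 and 7.02, 11.5 and 9.71 at D11, again without overlap (limma adjusted p = 0.00154). F4, F5 and F8, also among the 10 largest falls, likewise had every D11 score below every D7 score. F10 (chr19:23431644-23432301) was among the highest of all regions in D7 replicates 1 and 3, at 52.1 and 55.2, with 25.1 in replicate 2, and scored 18.8, 34.8 and 35.3 at D11. Its raw scores overlapped between days, and its percentiles of 85.1 to 99.9 at D7 and 21.1 to 76.9 at D11 did not.

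**Figure D4:**
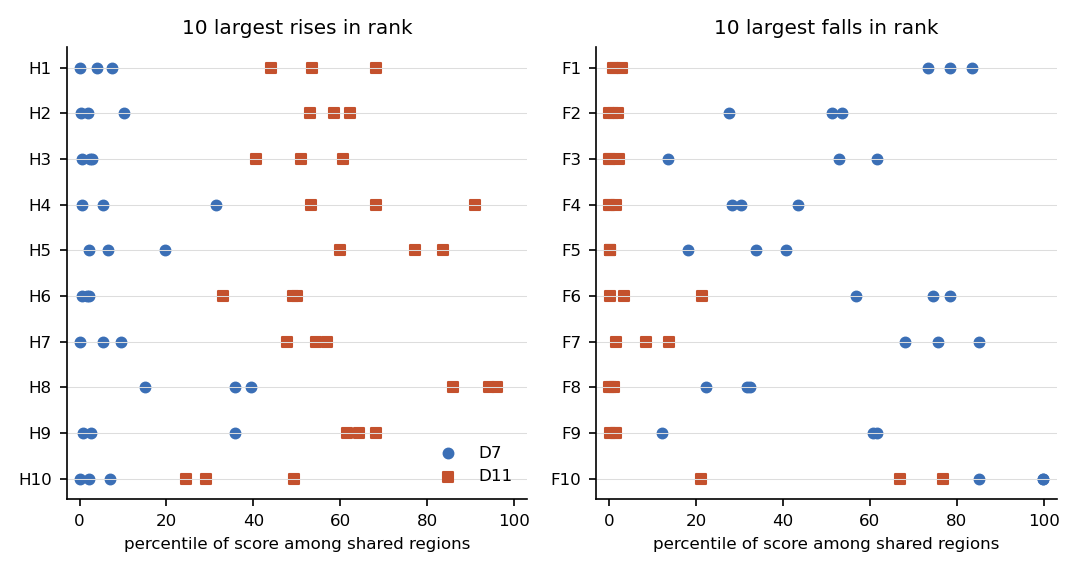
Percentile of the score among the 15207 shared regions (x axis) in each of the 3 D7 (circles) and 3 D11 libraries (squares) for the 10 called regions with the largest rise (left) and the largest fall (right) in normal score, in that order. The days do not overlap in any of the 20, and F1 goes from 73.4 to 83.4 at D7 to 0.904 to 2.97 at D11.

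Where the called regions stood in organoids outside the comparison was read among the 11316 regions that all 18 ATAC lists held, of which 492 were called higher and 368 lower. The 6 vehicle libraries set the calls, which makes their values extreme by choice. A place between their values is thus likely for any other library, and only the other 12 can be compared with each other. In those 12 the called-higher regions had a median percentile of 56.7 to 66.4, between the 30.4 to 34.9 of D7 and the 74.2 to 79.4 of D11. The called-lower regions had 47.4 to 65.0, between 82.2 to 85.4 at D7 and 34.5 to 41.3 at D11. In irradiated D7 organoids given TGFB1, the called-higher regions stood at 64.0 to 64.9, within the range of the other groups outside the comparison. The D7 vehicle group was the lowest of the 6 groups in 444 of the 492 regions and the highest in 280 of the 368, counts that its use in the calls favours.

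**Figure D5:**
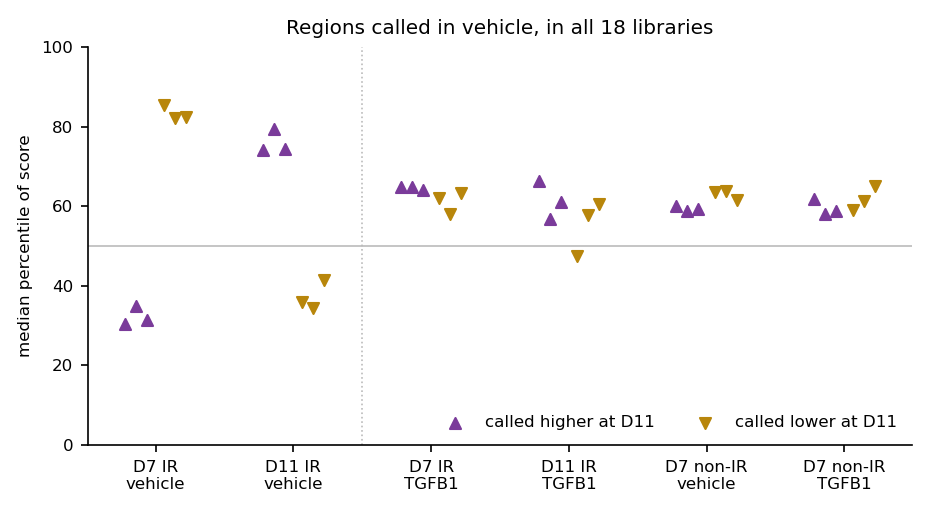
Median percentile of the score (y axis) of the 492 regions called higher (upward triangles) and the 368 called lower (downward triangles) at D11 in vehicle organoids, in each of 18 ATAC libraries grouped by condition (x axis), among 11316 regions held by all lists. Only the 6 libraries left of the dotted line, which set the calls, are far apart; the other 12 lie between 47.4 and 66.4 for both sets.

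The same test was made in TGFB1-treated organoids, where D11 against D7 is also a later time against the end of the TGFB1 exposure. Among 11528 shared regions that the 6 TGFB1 lists also held, limma called 40 (0.347%) between D11 and D7, 35 higher and 5 lower, with 1459 at an unadjusted p under 0.05. The count was 11, 12 and 16 without D7 TGFB1 replicates 1, 2 and 3, and 11, 0 and 55 without D11 TGFB1 replicates 1, 2 and 3. In the limma fit with 0 calls, 1010 regions had an unadjusted p under 0.05. With the replicate number as a block 132 were called, so the count depends on the fit and on single libraries. The 493 regions called higher in vehicle had a median change with TGFB1 of −0.10 normal-score units, and 195 of them (39.6%) were higher at D11. The 379 called lower had a median of −0.20, and 143 (37.7%) were higher. Over all 11528 the median was −0.01 and 49.1% were higher. H8 changed by −0.68 with TGFB1 (limma adjusted p = 0.352) and F1 by −0.94 (limma adjusted p = 0.308). Of the 12 named regions that could be tested, F10 alone passed with TGFB1, by a shift of −1.90 (limma adjusted p = 0.0344).

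The change from D7 to D11 was also compared directly between the treatments, in 1 limma fit over the 12 irradiated libraries. It differed in 361 of 11528 regions (3.13%), more positive with TGFB1 in 194 and more negative in 167. The count was 69 without D11 vehicle replicate 2, 124 without D11 TGFB1 replicate 2, and 149 and 170 without D11 vehicle replicates 1 and 3. It was 171 without D11 TGFB1 replicate 3 and 236 and 214 without D7 vehicle replicates 1 and 2.

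Of the called-higher regions 35.0% lay within 50 kb of a gained region, of all shared regions 28.4%, and of the called-lower regions 19.7%, with median distances of 87.5, 130.3 and 196.9 kb. Another shared region lay within 50 kb of 79.5, 72.1 and 59.3% of these sets, in the same order. Nearness to gained regions was thus not separated from the general density of regions. The nearest other shared region within 50 kb was itself called higher for 26 of 407 called-higher regions (6.39%) and for 396 of all 10970 with such a neighbour (3.61%). It was called lower for 17 of 322 called-lower regions (5.28%) and for 319 of the 10970 (2.91%). Chromosome 11 held the largest share of called-higher regions, 71 of its 1060 shared regions (6.70%), and chromosome 13 the smallest, 10 of 663 (1.51%). These are descriptions, with no test.

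All peaks had the same width, so a difference in peak width between days could not be tested. The number of peak windows in a shared region and the positions of peaks differed little between days. Of the 15207 shared regions, 101 had more peak windows in every D11 list than in any D7 list and 108 had the reverse. In the 11272 with a single peak in every list, the mean peak centre moved by a median of 21 bp between days, where the SD between replicates was 30.0 bp at D7 and 26 bp at D11.

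RNA levels of the same groups give the state of the cells at each day. They are set side by side only, since the 2 days were deposited in tables normalised separately and no test was made across them. Regions were not tied to genes, because no annotation of the build of the peaks was used here. Of 11264 genes that averaged 1 FPKM or more, 395 (3.51%) were at least 2-fold higher at D11 with no overlap between libraries and 370 (3.28%) at least 2-fold lower, both on the scale of FPKM + 1. With a pseudocount of 0.1 the counts were 643 and 460, and with a minimum mean of 5 FPKM they were 243 and 294, so the balance of directions depends on how low genes are treated.

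Of the absorptive enterocyte list, 12 of 14 genes were at least 2-fold lower at D11 and none higher, with a median log2 ratio of −1.64, against 0.01 over all measured genes. Apoa4, a lipoprotein of dietary fat export, was at 1542, 1493 and 1646 FPKM at D7 and at 107.4, 136.4 and 235.6 at D11. Fabp2, which carries fatty acids inside enterocytes, was at 529, 584 and 579 and at 73.0, 91.8 and 104.0. The brush-border enzyme gene Sis went from 529 ± 10.4 to 165 ± 48.3 FPKM (SD, n = 3). Krt20, a marker of differentiated epithelium, was at 148 ± 6.27 and 49.7 ± 13.9.

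Of 12 stem cell genes 1 was higher and 1 lower by this measure. Lgr5, the Wnt-dependent crypt stem cell receptor, was at 21.9, 21.8 and 21.6 FPKM at D7 and at 68.5, 56.5 and 52.1 at D11, and Olfm4, another crypt base gene, at 666 ± 16.2 and 238 ± 57.7. Of 14 measured regenerative genes, Clu, a marker of revival stem cells, was at 191 ± 15.3 and 78.6 ± 6.68, with Anxa8 and Msln also at least 2-fold lower, and Ly6e was higher. Enteroendocrine genes had 4 of 11 higher and none lower, among them the hormone genes Gcg, at 123 ± 7.99 and 273 ± 26.9, and Tac1, at 13.7 ± 0.519 and 37.0 ± 1.16. Of 13 measured genes of the TGFB list 2 were higher and none lower, with a median log2 ratio of 0.38. Tgfb1 itself, the ligand, was at 3.43 ± 0.470 and 14.3 ± 1.82 FPKM, and Tgfbi, a secreted target, at 2.77 ± 0.248 and 8.75 ± 0.732. The rest moved by less than 2-fold on this scale, in both directions. Id2 was at 20.7 ± 0.653 and 34.5 ± 5.56, Pmepa1 at 9.14 ± 0.404 and 5.57 ± 0.865, and Smad7 at 2.76 ± 0.198 and 2.62 ± 0.363 (SD, n = 3 throughout). No gene of the AP-1, YAP target, identity, goblet and proliferation lists passed the measure in either direction. Of the Paneth cell list, 1 of 8 was lower (Reg3b), and of the tuft cell and p53 target lists 1 each was higher (Dclk1 and Phlda3).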

How the data were processed

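ATAC-seq peaks were deposited by the authors as 1 list per library. The submitters' processing notes name MACS2 2.1.0, Picard 2.18.27, Bowtie2 and bedtools, without roles, and the builds mm9, GRCm39 and mm39. Which build the peak lists use is not stated there. Peaks ran past the last GRCm38 gene of several chromosomes (by 7.20 Mb on chromosome 7), so no gene, promoter, motif or sequence was assigned from the GRCm38 tables, and the planned promoter and motif comparisons were not run. All peaks had 1 width. The deposited score was read as −log10 q, since the lowest values lay just above 1.30, the −log10 of 0.05. RNA values were deposited by the authors as FPKM (the notes name TopHat2 2.1.0 and Cuffnorm 2.2.1), in separate tables for D7 and D11, and 0 sample columns were unmapped. Read depth was not known for either assay, so no counting interval could be given.

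Peaks that overlapped by 1 bp or touched were merged over the 6 lists, and a region's score in a list is that of its highest peak. Ranks were tested with limma 3.58.1 (trend, robust, R 4.3.3), checked on 15207 simulated regions, where 57% of shifts of 1 and 98% of shifts of 1.5 normal-score units were recovered with 9 false calls. The simulation gave every region the same SD within a day and moved only regions near the middle ranks. Its figures do not cover regions of unequal spread or shifts at the ends of the ranks. Single values used two-sided exact permutation tests (scipy 1.17.1), and the Jaccard difference used an exact test of the upper tail. The p of either cannot fall under 0.1 with 3 against 3 libraries. RNA ratios used log2 of mean FPKM + 1, for genes that averaged 1 FPKM or more over the 6 libraries. Named regions were the 10 gained and up to 10 lost ones with the highest lowest percentile, the 10 called shared regions with the largest change in each direction and the windows with most gained regions; a few of each are described. The members, lists and rules were chosen with earlier results of these data known. Same-numbered libraries of the 2 days did not deviate together (correlations of −0.0045, −0.0034 and −0.0014), so they were not paired.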

Additional observations from a re-analysis of the deposited data

Results flagged for a closer look

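The change from D7 to D11 differed between TGFB1-treated and vehicle-treated irradiated organoids in 361 of 11528 shared regions, by the interaction term of limma over 12 libraries. The same term passed the adjusted threshold for 8 of the 12 regions named for their large change in vehicle that could be tested. These 8 were chosen by the vehicle libraries that also enter the term, so their values are descriptions. The change with TGFB1 minus the change with vehicle, in normal-score units, was −2.35 for H1, −3.11 for H2, −2.26 for H4, −2.73 for H5, −2.63 for H7, −2.86 for H8 and −2.82 for H9. It was 2.40 for F1. In each of them the change with TGFB1 alone did not pass the threshold, with shifts of −0.94 to −0.05. In the TGFB1 libraries day and time since the exposure cannot be told apart.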

How the results depend on the processing

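The 1.64-fold peak number was 1.63 over all sequence names and 1.64 at q of at most 0.01, and 1.46 to 1.83 without 1 library. With the replicate block (same numbers as pairs) the exact sign test gave p = 0.25, the smallest possible. Gained regions numbered 737 at equal peak numbers, 567 with only the D11 lists reduced, 15264 when 2 of 3 lists sufficed and 3886 to 8612 without 1 library. Lost regions numbered 440 at equal numbers, 132 with 50% overlap, 702 when 2 of 3 lists sufficed, 23 at a score of at least 5 (chosen after seeing the data) and 62 to 132 without 1 library. Without 1 library the gained and lost rules ask for fewer lists, which favours higher counts. Shared calls numbered 1764 with median-centred log2 scores, 1441 with the replicate block, 1091 with quantile normalised scores and 281 to 1041 without 1 library; of the 1055, 11 changed sign with median-centred scores. The share of gained regions in TGFB1 lists differed by 28.7 points, by 1.94 at equal numbers and by 24.4 to 35.1 without 1 library, all in 1 direction. The exact sign test of pairs gave p = 0.25 for it. For the results chosen after seeing the data, the difference in change gave 69 to 381 calls without 1 library, and the 40 calls with TGFB1 became 132 with the replicate block and 0 to 55 without 1 library. The 395 genes higher and 370 lower in RNA became 643 and 460 with a pseudocount of 0.1 FPKM and 243 and 294 with a minimum of 5 FPKM. The 12 lower enterocyte genes stayed at 12 or 13 throughout. Of 224 alternative values for the 20 named shared regions, none reversed and 12 lost the call, all without 1 library. At equal peak numbers 7 of the 20 had a value (H1, H2, H5, H7, H8, H9 and F10) and kept the call. The other 13, F1 to F9 among them, were not in all 6 reduced lists and so were not tested there. Promoter shares were not run. Unknown read depth limits every statement on absent peaks.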
